A study of Homo sapiens with 2 samples.

Results

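Heterotrimeric G proteins carry signals from cell-surface receptors into the cell. An alpha subunit binds guanine nucleotides, a beta and a gamma subunit form a pair, and a receptor activates the trimer by exchanging GDP for GTP on the alpha subunit. Regulators of G protein signalling (RGS proteins) speed the hydrolysis of that GTP and so shorten the signal. The genes described here were all those whose array name begins with GNA, GNB or GNG, or with RGS followed by a digit. They came to 55 of the 30238 gene names on the array, namely 14 alpha, 7 beta, 12 gamma and 20 RGS genes and 2 RGS binding proteins. GNB1L and GNB2L1 (current symbol RACK1) were included by their names, although each encodes a protein with WD repeats that resembles a beta subunit without being a classical one.

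The cells were A2780, an established human ovarian carcinoma line, and each of the 3 lines used here derives from it. A2780CBN had been selected in rising doses of carboplatin, a DNA-binding platinum drug, up to 22.2 µM. A2780CBNDXL had been selected in carboplatin together with docetaxel, a microtubule-binding taxane, and the labels give 8.02 µM for the combination. The methods give a lower maximally tolerated dose, with far less docetaxel than carboplatin. Each was hybridised on two-colour arrays against A2780CC, the control kept in culture alongside without selection, which the labels name alike for both although the methods describe a separate control for each resistant line. RNA from 3 isolations was pooled into 1 sample per line, so the 4 arrays of a line (both labelling directions on each of 2 slides) repeat 1 sample, and the SDs given below describe the arrays alone. The share of spots that the scanner software marked as clearly brighter than local background ranged from 59.8% to 67.5% over the channels, and no spot was saturated.

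Of the 6 epithelial-list genes, PAX8, KRT8, KRT18 and VIM exceeded background in all channels. EPCAM, an epithelial adhesion molecule, was higher in both resistant lines (2.07 ± 0.30 and 1.67 ± 0.24 on the log2 scale), and KRT18 (1.05) and VIM (1.08) were higher in A2780CBN, where KRT8 gave -0.37 and KRT19 -0.48. PTPRC, PECAM1 and CDH5, which define leukocytes and endothelium, never exceeded background clearly, whereas CD3E and CD14 of the leukocyte list did and differed from the control by less than 2-fold. All 3 fibroblast-type genes listed were measured, and they were higher in the resistant lines: COL1A1 by 0.99 and 2.04, COL3A1 by 1.44 and 1.16 and DCN by 2.21 and 3.62 on the log2 scale in A2780CBN and A2780CBNDXL. The summed signal of these 3 genes spanned 36528 to 45921 in A2780CBN against 11701 to 18082 in its control, and 44402 to 61172 in A2780CBNDXL against 15462 to 21898. Their part in the results below was not tested. In bulk RNA, a change in how many cells express a gene and a change in its RNA per cell cannot be told apart.

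GNA14 and RGS18 gave the largest ratios in either direction, and the 250 RefSeq bases before their transcription starts (GRCh38.p14) are shown so that the 2 upstream regions can be compared, with CG pairs in capitals. The GNA14 region is chr9:77648323-77648572 on the minus strand and the RGS18 region is chr1:192158212-192158461 on the plus strand.
GNA14: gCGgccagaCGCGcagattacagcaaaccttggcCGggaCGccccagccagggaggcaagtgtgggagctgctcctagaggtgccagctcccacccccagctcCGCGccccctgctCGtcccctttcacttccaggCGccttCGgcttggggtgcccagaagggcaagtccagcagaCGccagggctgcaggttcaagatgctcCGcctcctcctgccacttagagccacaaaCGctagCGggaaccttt
RGS18: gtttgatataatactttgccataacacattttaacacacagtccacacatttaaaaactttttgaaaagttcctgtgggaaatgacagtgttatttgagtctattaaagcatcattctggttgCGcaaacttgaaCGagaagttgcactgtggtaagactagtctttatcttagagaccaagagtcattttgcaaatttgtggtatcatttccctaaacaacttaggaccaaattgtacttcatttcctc
The GNA14 region held 14 CG pairs at 65.6% G and C, and the RGS18 region held 2 at 34.8%, beside medians of 11 pairs and 58% over 35116 RefSeq regions of this length. Neither region held TGACG (the core of cyclic AMP response elements) or TGACTCA (the AP-1 motif, which shares TGAC with it) on either strand. Of all these regions, 21.2% hold the first and 4.2% the second.

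A member counted as changed in a line on 3 conditions. The log2 ratio (resistant line over control) had to average at least 1 in size, which is 2-fold, all 4 arrays had to point the same way, and 1 given channel had to exceed background clearly on each of them. The brightest probe stood for a gene with several probes. With 1 sample per line this is a rule of size and not a test. It could be applied to 37 members in A2780CBN, 35 in A2780CBNDXL and 33 in both, and 16 members could be judged in neither line.

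In A2780CBN, 10 of 37 members changed, 7 higher and 3 lower. That is 27.0%, beside 12.6% of the 17951 genes tested in that line, where 8% were higher and 4.55% lower. In A2780CBNDXL, 14 of 35 changed, 6 higher and 8 lower. That is 40%, beside 16.9% of the 17116 genes tested, where 7.7% were higher and 9.2% lower. The median log2 ratio of the members was 0.17 in A2780CBN and 0.25 in A2780CBNDXL, beside medians of -0.06 and 0.04 over all genes tested, and the median size of the ratio was 0.44 and 0.63, beside 0.33 and 0.39. Both lines shared 5 changes of the same direction among the 33 members tested in both, GNA14, GNAI1 and RGS9 higher and RGS16 and RGS18 lower, where 4% of 16131 genes did so. GNAZ changed in both lines in opposite directions.

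**Figure D1:**
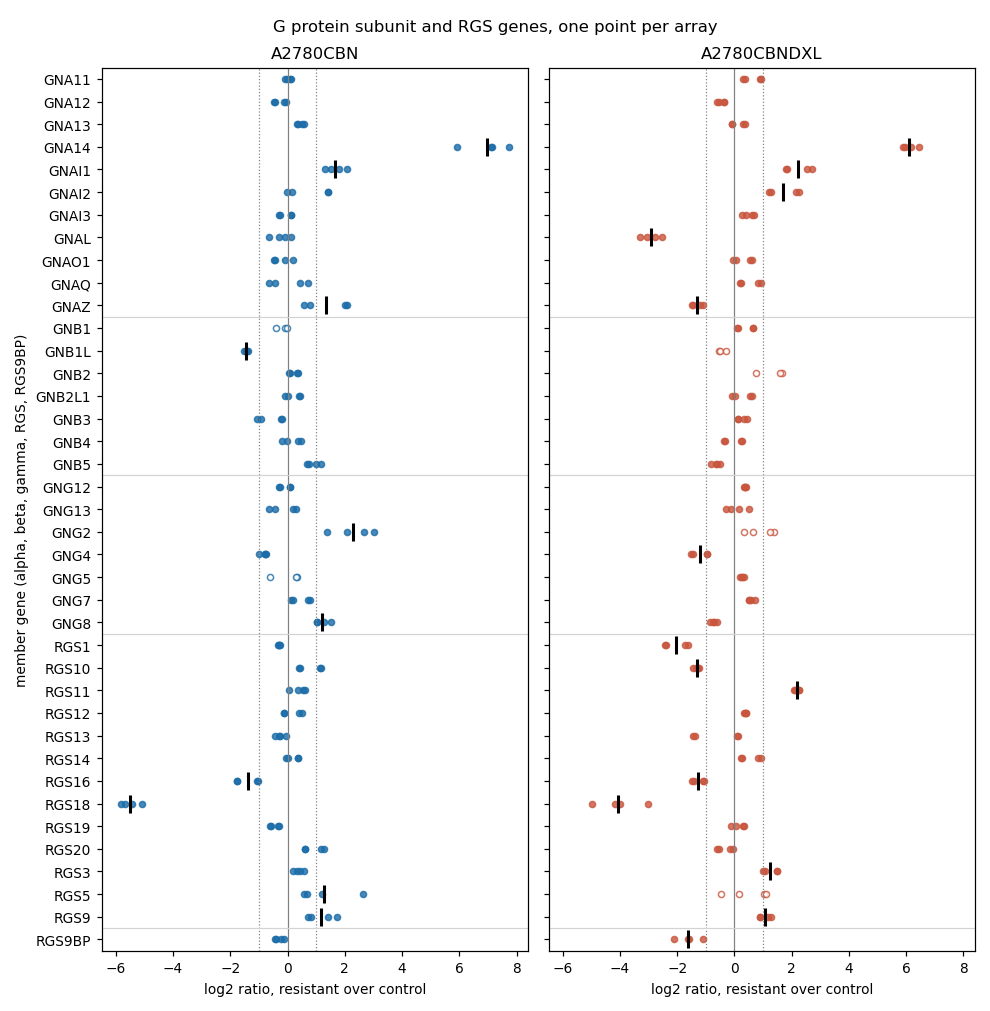
Log2 ratio of resistant line over control (horizontal axis) for the 39 members tested in either line, one point per array, by role from alpha subunits at the top to RGS9BP at the bottom. Filled points mark members tested in that line, open points those that could not be, black bars the means of the 10 and 14 changed members, and dotted lines a 2-fold difference. GNA14 lies alone on the right of both panels and RGS18 alone on the left.

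GNA14, an alpha subunit of the Gq class that activates phospholipase C beta, was higher in both resistant lines. Its processed signals in A2780CBN were 947, 722, 719 and 742 on the 4 arrays, against 4.45, 5.18, 5.25 and 12.3 in the control, none of them clearly above background. The groups did not overlap. The log2 ratio as measured averaged 6.97 ± 0.76 (SD over 4 arrays), with the control at background. With normexp background correction (offset 50) and loess, GNA14 gave 1.92 in A2780CBN and 4.02 in A2780CBNDXL. Because the control gave only a bound, GNA14 was at least 34.5-fold higher in A2780CBN, where each control value was replaced, if smaller, by the dimmest signal on that array that still cleared background. In A2780CBNDXL the signals were 6196, 5234, 5034 and 4967 against 71.5, 85.0, 70.7 and 83.1, all clear of background. The mean log2 ratio there was 6.11 ± 0.25, a 69.0-fold difference. The control beside A2780CBNDXL thus gave a GNA14 signal well above background on 4 of 4 arrays and the control beside A2780CBN on 0 of 4. After the channels of all 8 arrays had been put on a common scale, GNA14 was higher by 2.72 ± 0.12 on the log2 scale in A2780CBNDXL than in A2780CBN. Set against the control of the other line, the log2 ratio of GNA14 in A2780CBN was 3.39.

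GNA14 is measured by 2 probes of 60 bases, the first 30 of which are given as the files write them, because the agreement between probes bears on this gene and on the next ones.
GNA14 probe 1: tagagtaaatgggctctagatagcatatat
GNA14 probe 2: aagctttaccaagatcagaatcctgacaaa
Probe 1, the brighter, lies at chr9:79228013-79228072 and probe 2 at chr9:79228805-79228864 on NCBI36, the build of the array design, 792 bases apart on the minus strand. Probe 2 gave 5.79 ± 0.27 in A2780CBN, again with the control at background, and 5.04 ± 0.14 in A2780CBNDXL, so both probes met the rule in both lines. GNAQ, the Gq-class alpha subunit whose brightest probe lies 295.5 kb from that of GNA14, gave 0.02 ± 0.65 and 0.54 ± 0.38 on that probe. Its other probes gave 0.02, 0.09 and 0.12 in A2780CBN. In A2780CBNDXL they gave 0.81, 1.00 and 1.14, and only the last met the rule. Of the 6 other named genes with probes within 1 Mb of GNA14, not all could be judged in both lines: PRUNE2 in neither, and GCNT1 and PSAT1 in A2780CBN alone. GCNT1 met the rule there, with -2.97 ± 0.12. PSAT1 gave -2.65 ± 0.20 in A2780CBNDXL, where it could not be judged. VPS13A, the nearest, gave -0.53 ± 0.35 and -0.76 ± 0.10.

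GNAI1, an inhibitory alpha subunit that lowers adenylyl cyclase activity, was higher in both lines against its own control, by 1.67 ± 0.33 in A2780CBN and 2.22 ± 0.47 in A2780CBNDXL. Its signals in A2780CBN were 102, 77.4, 94.6 and 75.8 against 29.2, 31.4, 22.7 and 26.8. In A2780CBNDXL they were 530, 445, 540 and 325 against 80.4, 125, 93.7 and 94.0. The control beside A2780CBN cleared background on 3 of 4 arrays. The signals of A2780CBN overlapped those of the control beside A2780CBNDXL, and against that control the log2 ratio of A2780CBN was -0.11 ± 0.29. The change of GNAI1 in A2780CBN therefore depended on which A2780CC channel was used, and that in A2780CBNDXL did not (4.00 ± 0.53 against the other control). GNAI2, a second inhibitory subunit, changed in A2780CBNDXL (1.71 ± 0.56), with signals of 2338, 2849, 2883 and 3147 against 974, 602, 1261 and 715. Its arrays there fell into pairs by labelling direction, 1.26 and 1.19 on the forward arrays and 2.24 and 2.14 on the reverse ones. In A2780CBN the same pairs were 1.39 and 1.42 against -0.03 and 0.16, so the mean of 0.73 rested on the forward arrays.

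GNAL, the olfactory-type stimulatory alpha subunit, was lower in A2780CBNDXL, with signals of 8.62, 6.02, 5.13 and 5.46 against 49.5, 49.6, 50.9 and 37.1. The A2780CBNDXL signals did not clear background, so GNAL is given as at least 2.23-fold lower. With normexp and loess it gave -0.27. In A2780CBN the log2 ratio was -0.23 ± 0.34, and the array values lay on both sides of 0. The other alpha subunits tested, GNA11, GNA12, GNA13, GNAI3, GNAO1 and GNAQ, did not meet the rule in either line by their brightest probes. The brightest probe of GNAS, the stimulatory alpha subunit, had an outlier-marked spot on 1 array of each line. This kept the gene from being judged. The remaining 3 arrays of that probe gave means of 0.09 ± 0.04 and 0.53 ± 0.36. In A2780CBNDXL a much dimmer probe gave 1.59 ± 0.29, with the resistant line clear of background on 4 of 4 arrays and the control on 2. Another bright probe gave 1.13 ± 0.06 on 2 arrays there. In A2780CBN these 2 probes gave -0.10 ± 0.77, with the resistant line at background, and 0.36 ± 0.46 on 3 arrays.

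GNAZ, an alpha subunit of the inhibitory family, was the member that turned direction. Its brighter probe gave signals of 2215, 2735, 2320 and 3334 in A2780CBN against 1286, 686, 1557 and 794, and of 636, 881, 943 and 1125 in A2780CBNDXL against 1358, 2390, 2176 and 3175. The groups did not overlap in either line, and the mean log2 ratios were 1.36 ± 0.79 and -1.31 ± 0.19. In A2780CBN the forward arrays gave 0.78 and 0.58, both under the limit, and the reverse ones 2.00 and 2.07. The probes of GNAZ and of GNB5, the beta subunit that pairs with RGS proteins of the R7 class such as RGS9 and RGS11, are shown because their ratios differed within the gene.
GNAZ probe 1: agatgtacgggggaaagagaagctggggat
GNAZ probe 2: gatagattgctaggtagatagacacacaca
GNB5 probe 1: tcacatgtaaatagatattacttctagagg
GNB5 probe 2: aattttagctcttaatgaaaataagaccaa
The second GNAZ probe (chr22:21795791-21795850) lies 1346 bases from the first (chr22:21797137-21797196) on NCBI36 and gave -0.20 ± 0.80 and 0.09 ± 0.28, so the 2 probes of GNAZ did not agree. Against the control of the other line the first probe gave 0.40 ± 0.17 and -0.35 ± 0.56, under the limit in both lines. The first GNB5 probe (chr15:50202140-50202199) gave 0.90 ± 0.21 in A2780CBN and -0.65 ± 0.12 in A2780CBNDXL. The second (chr15:50228808-50228867), designed on another transcript 26.7 kb away, was dim in the resistant lines, clear of background on 2 of 4 A2780CBN arrays and on 0 of 4 A2780CBNDXL arrays. Its signal lay below the control in both lines and met the rule in both, with the control clear of background on 4 of 4 arrays. The first probe lay above the control in A2780CBN. No size is given for the second probe.

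Over all members with more than 1 usable probe, 16 of 21 probe pairs in A2780CBN (76.2%) and 14 of 20 in A2780CBNDXL (70%) gave log2 ratios within 0.5 of each other. GNG2 had 2.29 ± 0.72 on the brighter probe and 0.77 on the other in A2780CBN. In A2780CBNDXL a further probe of RGS12 reached 1.26 and one of GNAQ 1.14, where the brightest probes gave 0.38 and 0.54.

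**Figure D2:**
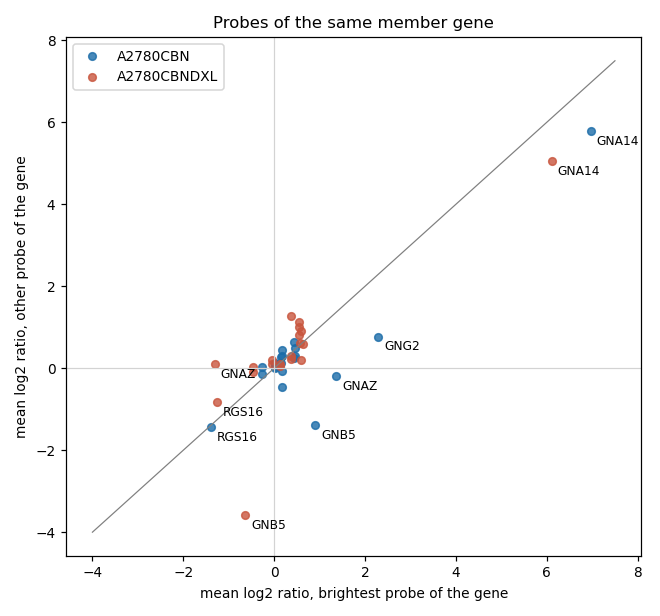
Mean log2 ratio of the brightest probe of a member (horizontal axis) against that of each other probe of the same gene (vertical axis), 21 pairs in A2780CBN and 20 in A2780CBNDXL, with the line of equal values. Both GNA14 points lie at the upper right, below the line of equal values (6.97 and 5.79, 6.11 and 5.04), and the points of GNAZ and GNB5 lie well off that line; the second GNB5 probe was at background in A2780CBNDXL.

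Among the members with beta subunit names, GNB1L and GNB2L1 included, 1 of 6 tested changed in A2780CBN and 0 of 5 in A2780CBNDXL, by their brightest probes. All genes tested gave 12.6% and 16.9%. The changed member was GNB1L, not a classical beta subunit, with signals of 2052, 1890, 1923 and 1948 against 5878, 4924, 5222 and 5195. The groups were far apart and the arrays close, at -1.44 ± 0.06. In A2780CBNDXL, GNB1L had values on 3 arrays, with a mean of -0.40 ± 0.13. GNB2 gave 1.19 ± 0.51 on its 3 arrays in A2780CBNDXL and met the 2-fold rule there once an outlier-marked spot was kept. GNB2L1, a scaffold protein with bright signals, gave 0.19 ± 0.26 and 0.27 ± 0.35.

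Of the gamma subunits, which anchor the beta partner to the membrane, GNG2 and GNG8 were higher in A2780CBN and GNG4 was lower in A2780CBNDXL. GNG8 gave signals of 828, 803, 938 and 830 in A2780CBN against 343, 397, 326 and 402, and of 306, 269, 266 and 246 in A2780CBNDXL against 503, 453, 407 and 446. It was thus above its control on all 4 arrays of the first line (1.21 ± 0.24) and below it on all 4 of the second (-0.73 ± 0.10, under the 2-fold limit). GNG4 had signals of 1413, 1460, 1543 and 1299 in A2780CBNDXL against 2748, 4162, 2971 and 3537, with no overlap. It was below its control in both lines, at -0.84 ± 0.12 and -1.22 ± 0.30. GNG2 had low signals in A2780CBN, 116, 126, 135 and 147 against 18.3, 15.4, 51.5 and 34.5, and the control cleared background on 2 of 4 arrays. GNG11 in A2780CBNDXL had a mean of 2.71 ± 1.31, with the probe well above background on 3 of 4 arrays in the resistant line and on 0 of 4 in the control, so it was not counted; its bound was at least 2.62-fold. GNG10, also bright, lacked a value on 1 array of each line and gave -0.24 ± 0.53 and -0.75 ± 0.04. GNGT1, the gamma subunit of rod photoreceptors, cleared background only in the Cy5 channel, whichever sample that channel held, and its SDs were 2.59 and 3.04, so it was not judged.

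RGS genes accounted for 4 of the 10 changes in A2780CBN, of 13 tested (30.8%), and for 7 of the 14 in A2780CBNDXL, of 12 tested (58.3%). All genes tested gave 12.6% and 16.9%. RGS18, a regulator best known from platelets and blood-forming cells, was lower in both lines. Its signals in A2780CBN were 4.46, 5.35, 4.78 and 4.32, none clear of background, against 251, 181, 242 and 186. That difference was at least 9.39-fold. In A2780CBNDXL the signals were 12.4, 35.6, 59.5 and 36.5 against 395, 648, 487 and 588, with a mean log2 ratio of -4.05 ± 0.80 and 3 of 4 arrays well above background in the resistant line. The control beside A2780CBNDXL was higher in RGS18 than the other by 1.25 ± 0.42 on the log2 scale. With normexp background correction and loess in place of the scanner software's processing, the ratio of RGS18 in A2780CBN was -0.90, under the limit. Against the control of the other line RGS18 gave -2.81 ± 0.94 in A2780CBNDXL, and in A2780CBN its signal, at background, was again the lower one.

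RGS16, a regulator of Gi-class and Gq-class subunits, was lower in both lines by a like amount, -1.40 ± 0.41 and -1.27 ± 0.22. Its signals were 8941, 10551, 8712 and 10570 in A2780CBN against 30138, 21485, 29490 and 21929, and 10160, 13753, 11252 and 13169 in A2780CBNDXL against 27160, 28560, 31640 and 28263. The groups did not overlap, and the other control gave -1.45 and -1.21. The second RGS16 probe gave -1.44 in A2780CBN and -0.82 in A2780CBNDXL, the latter under the limit. RGS9, the regulator of the visual signalling chain and of striatal neurons, was higher in both lines, at 1.16 ± 0.49 and 1.07 ± 0.19. Its signals were low, 74.7, 65.6, 59.1 and 66.3 in A2780CBN against 28.4, 37.7, 17.9 and 40.7. Against the control beside A2780CBNDXL the log2 ratio in A2780CBN was 0.03 ± 0.18, so this change, like that of GNAI1, depended on the control used. In A2780CBNDXL, RGS9 no longer met the rule without the third or without the fourth array, or with normexp and loess. PDE6A, a phosphodiesterase subunit known from rod cells, was at least 1.90-fold higher in A2780CBN than in its control.

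**Figure D3:**
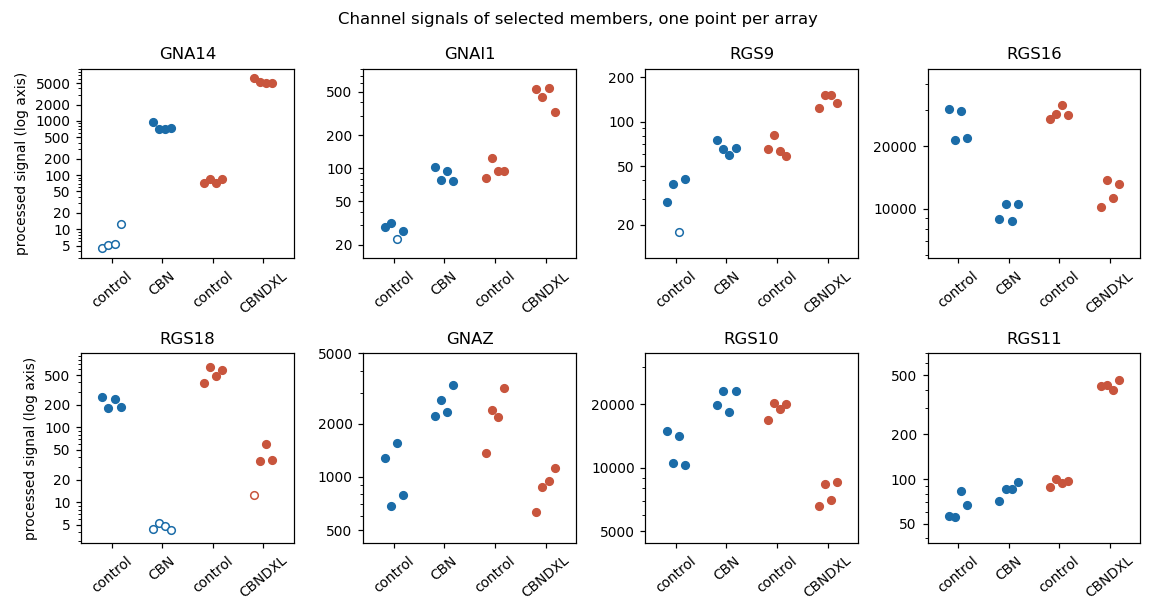
Processed signals on log axes of 8 members chosen after their values were seen, with the control and the resistant line of A2780CBN (blue) and of A2780CBNDXL (red), one point per array; open points are not well above background. For GNAI1 and RGS9 the A2780CBN points lie level with the control beside A2780CBNDXL, whereas RGS16 is lower than both controls in both lines.

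RGS1, RGS10, RGS3, RGS11 and RGS9BP changed in A2780CBNDXL and not in A2780CBN, and RGS5, a regulator known from pericytes, changed in A2780CBN. RGS1, a regulator known from lymphocytes, had signals of 6384, 5820, 6503 and 5448 in A2780CBNDXL against 21011, 30772, 20090 and 29113, a mean of -2.04 ± 0.43. In A2780CBN it was 13712, 11456, 10088 and 10965 against 17025, 13774, 12597 and 13458, a mean of -0.30 ± 0.02. RGS1 was below its control on all 8 arrays, by more in A2780CBNDXL.

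RGS10, one of the smallest RGS proteins, had signals of 6627, 8421, 7051 and 8547 in A2780CBNDXL against 16944, 20251, 19121 and 20015, and of 19962, 23269, 18478 and 23245 in A2780CBN against 14899, 10497, 14114 and 10364. The means were -1.32 ± 0.09 and 0.78 ± 0.43, with no overlap between resistant line and control in either line. Against the control of the other line RGS10 gave -0.82 ± 0.19 in A2780CBNDXL, under the limit. RGS11, of the same R7 class as RGS9, had signals of 424, 432, 397 and 467 in A2780CBNDXL against 88.7, 100, 94.1 and 97.5, a mean of 2.18 ± 0.10, and it was higher there with either control. With normexp and loess it gave 0.98, just under the limit. In A2780CBN it gave 0.38 ± 0.25.

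RGS3, which acts on Gi-class and Gq-class subunits, had signals of 6324, 9068, 7832 and 7957 in A2780CBNDXL against 3166, 3247, 3744 and 2863. The groups did not overlap, and the mean was 1.25 ± 0.26, beside 0.38 ± 0.15 in A2780CBN. RGS5 gave 1.27 ± 0.96 in A2780CBN from signals of 28.2 to 40.1 against 5.17 to 21.8, with the control clear of background on 1 of 4 arrays. Its other probe gave 0.89, under the limit. Without the third array, where its ratio was 2.64, RGS5 no longer met the rule. RGS9BP, which tethers RGS9 to membranes, had signals of 12.8, 98.5, 148 and 133 in A2780CBNDXL against 54.8, 299, 318 and 414. The first array was dim in both channels, so the groups overlapped across arrays while each array pointed down (-1.61 ± 0.41). RGS9BP no longer met the rule with normexp and loess (-0.53) or in the methods' 3-way ANOVA. In A2780CBN it gave -0.29 ± 0.14. RGS2, a Gq-selective regulator with signals up to 162900, lacked values on 2 arrays of A2780CBN and 1 of A2780CBNDXL and gave 0.79 ± 0.41 and -0.21 ± 0.28.

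RGS18, RGS1, RGS13 and RGS2 lie in that order within 1 Mb of chromosome 1, with steps of 394.3, 80.3 and 151.9 kb between their probes from 190421224 on NCBI36. They did not move alike. RGS18 was lower in both lines and RGS1 met the rule in A2780CBNDXL alone, while RGS13 gave -0.26 ± 0.16 and -0.65 ± 0.87. Of the 4 other named genes with probes within 1 Mb of RGS18, B3GALT2 could be judged in neither line, GLRX2 in A2780CBNDXL alone, TROVE2 in A2780CBN alone and UCHL5 in both, and none met the rule where it was judged.

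Set directly against each other, the log2 ratios of both lines differed for 10 of 33 members, by at least 1 in size with the 4 arrays of one line all above those of the other. This held for 16.4% of the 16131 genes tested in both. RGS11 and RGS18 were higher in A2780CBNDXL, by 1.79 and 1.44, and 8 members were lower. Their differences were -2.68 for GNAL, -2.67 for GNAZ, -2.10 for RGS10, -1.95 for GNG8, -1.74 for RGS1, -1.54 for GNB5, -1.31 for RGS9BP and -1.25 for RGS20. Those of GNAL and RGS18 rest in part on signals at background, and that of RGS18 was lost without the third A2780CBNDXL array. Since each ratio holds its own control, such a difference can lie in either channel. For RGS20, an RGS protein of the RZ class, the resistant lines differed by -0.15 ± 0.45 and the controls by 1.1 ± 0.27. For RGS10 the resistant lines differed by -1.60 ± 0.29 and the controls by 0.50 ± 0.14. Of the 29 members well above background in the control channel on all 8 arrays, 3 differed between the controls by the same rule, RGS18, RGS20 and GNB3 (-1.02 ± 0.44), beside 3.4% of 15652 genes. GNA14, GNAI1 and RGS9 could not be judged there because the control beside A2780CBN fell short of background on at least 1 array.

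**Figure D4:**
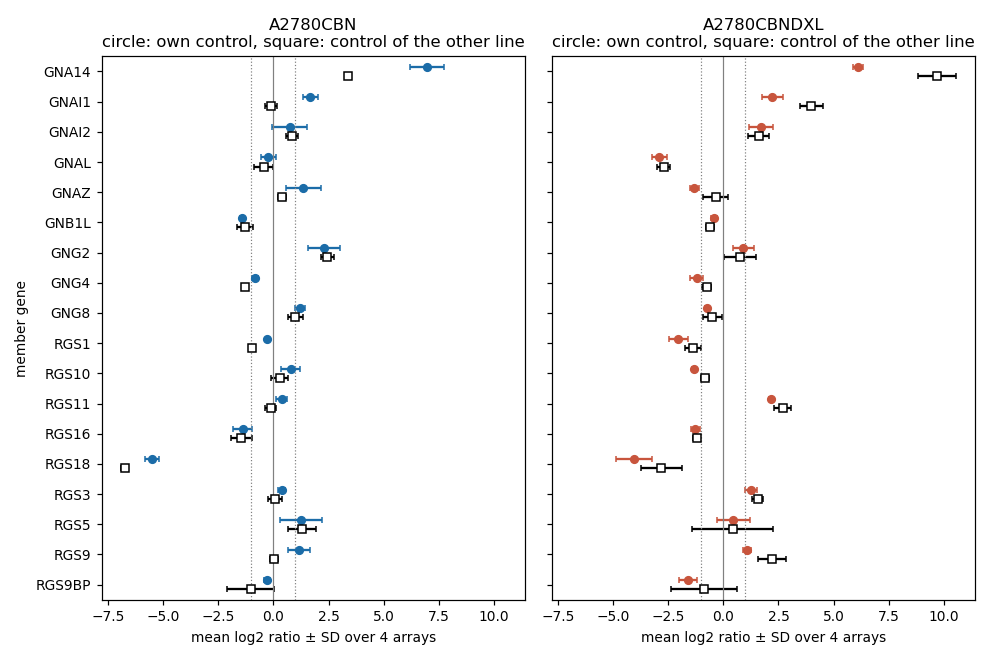
Mean log2 ratio ± SD over 4 arrays of the 18 members changed in either line, against the control on the same array (circles) and against the A2780CC channel of the matched array of the other line (squares), with GNB1L over 3 arrays for its square and in A2780CBNDXL; dotted lines mark a 2-fold difference. Points of GNA14, GNAL and RGS18 that involve a channel at background have no measured size. In A2780CBN the squares of GNAI1 (-0.11), RGS9 (0.03), GNAZ (0.40) and GNG8 (0.99) lie inside the dotted lines, and those of GNA14, GNG2, RGS5, RGS16 and RGS18 stay outside.

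With the control channel of the other line, 6 members met the rule in A2780CBN, 5 of them among the original 10 (GNA14, GNG2, RGS5, RGS16 and RGS18). GNB1L gave -1.29 ± 0.36 and was not counted because its value was missing on 1 array of that control. In A2780CBNDXL, 10 of the original 14 met it, and GNAZ, GNG4, RGS10 and RGS9BP did not. The share of all genes that met the rule with the other control was not computed.

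Of the other genes of these pathways, 62 on 9 lists were on the array. In A2780CBN 2 of 46 tested were changed (4.35%), and in A2780CBNDXL 8 of 45 (17.8%), 4 higher and 4 lower, beside 12.6% and 16.9% of all genes tested. The share in A2780CBNDXL was thus near that of the array as a whole, and the genes below are given as single values. Of 4 phospholipase C beta genes, the effectors of Gq-class subunits such as GNA14, only PLCB2 and PLCB3 were bright enough to be judged, and neither met the rule in either line. Among adenylyl cyclases, which make cyclic AMP, ADCY5 was at least 3.32-fold higher in A2780CBN, and PRKAR1A, a regulatory subunit of protein kinase A, gave 1.03 ± 0.08. In A2780CBNDXL 3 phosphodiesterases, which degrade cyclic AMP, met the rule: PDE4B was at least 20.9-fold higher, PDE3A gave 2.88 ± 0.67 with its control clear of background on 1 of 4 arrays, and PDE3B -1.10 ± 0.03. PDE4A gave -1.25 ± 0.03 there but could not be judged, as only 3 of 4 arrays counted as clear of background. PRKACA, the catalytic subunit of protein kinase A, gave 1.08 ± 0.53 there. ARRB1, an arrestin that ends receptor signalling, gave -1.82 ± 0.43. SNX25, a sorting nexin with an RGS domain, gave -2.85 ± 0.17, and ARHGEF1, a guanine nucleotide exchange factor driven by G12-class subunits, gave 1.06 ± 0.71. KCNJ3, a potassium channel opened by beta-gamma pairs, was at least 4.09-fold lower there.

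RGS4, RGS22, GNG3, GNG11 and GNGT1 were above background on too few arrays to be tested in either line. GNA15, GNAT1, GNGT2, RGS6, RGS7, RGS8, RGS17 and RGS7BP never cleared background in either channel, which bounds their signals and does not show that they were absent.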

How the data were processed

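Two-colour arrays compared each resistant line with A2780CC. The deposited files hold scanner intensity values that the authors extracted with Agilent Feature Extraction (10.7.1.1 on slide 1, 10.7.3.1 on slide 2), background-subtracted and dye-normalised. No value column of another sample was used, and the Partek step named in the notes was not repeated. Log2 ratios were computed from the deposited processed signals, leaving out control and outlier-marked spots. Reverse arrays were turned over: the submitters' list repeats the forward dyes for them, but their names and the methods give a swap, and unturned log ratios correlated at -0.74 to -0.58 between directions and 0.85 to 0.90 within one. Ratios were averaged within a labelling direction, then over both.

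Genes are named as in the files; 84 of 93 member probes matched a RefSeq accession. Probe coordinates are NCBI36; whether a probe lies in an exon or untranslated region was not determined. Bounds and control comparisons used Aquantile scaling (limma 3.58.1, R 4.3.3; Python 3.11.15). With 1 sample per line no test across samples exists; array number limits precision. The 3-way ANOVA and limma were run as alternatives on array error alone, and the rule and both tests were tested on simulated data. Named were all changed members, GNA14, the 3 largest and 3 smallest ratios per line, the 5 largest differences between lines, the brightest member of each role, members whose probes disagreed (1 changed, another under 0.3 in size or of opposite sign) and, of 9 pathway lists, up to 4 changed genes each. The members and lists were chosen with earlier results of these data known.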

Additional observations from a re-analysis of the deposited data

Results flagged for a closer look

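Of the 10 members that differed between the lines by the rule, 5 had all 4 arrays of one line above the control and all 4 of the other below it. GNB3 showed the same pattern, but its difference of 0.86 was under the limit. The share of all genes with this pattern was not computed. The log2 ratio in A2780CBNDXL minus that in A2780CBN was -2.67 for GNAZ, -2.10 for RGS10, -1.95 for GNG8, -1.54 for GNB5 and -1.25 for RGS20. The difference was not tested, since each line is 1 sample. For GNAZ the second probe did not show the turn in direction (-0.20 and 0.09). Nor did the second probe of GNB5, which lay below the control in both lines. For RGS20 the resistant channels differed by -0.15 and the controls by 1.1.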

How the results depend on the processing

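In A2780CBN 10 members changed, and 4 did so with normexp and loess, with both channels required above background or with a 3-fold limit, and 6 when set against the A2780CC channel of the other line. In A2780CBNDXL 14 changed, and 8 did so with a 3-fold limit. The 10 members that differed between lines numbered 5 with normexp and loess, of which 4 were among the 10 and GNA14 was added, and 6 with a 3-fold limit. The share of all genes called was computed for the main rule alone. Whether the members exceeded that share under any other setting was therefore not tested. Normexp (offset 50) lost GNAI1, GNG2, GNG8, RGS5, RGS9 and RGS18 in A2780CBN, and GNAL, RGS9, RGS11 and RGS9BP in A2780CBNDXL, leaving 10. The cause was not tested. The median log2 ratio in A2780CBN (0.17) was 0.0898 with normexp, 0.0912 on slide 1 alone, 0.0904 with both channels required, 0.11 with background-subtracted signals, and 0.0569 averaged over probes or 0.0573 without the dim-probe filter. The median in A2780CBNDXL (0.25) was 0.0935 with normexp, 0.168 with background-subtracted signals and 0.13 without the filter. Leaving out 1 array of the line gave 9 to 10 and 13 to 17 changed members, 9 to 11 that differed, and medians of 0.081 to 0.17 and 0.15 to 0.25. GNAI1 in A2780CBN turned to -0.11 against the other control. Of 438 values for 20 members, 373 moved by less than the spread between arrays, 64 by more and 1 turned. The 373 include all 160 values with 1 array left out and the 40 on each slide alone. Those reuse the same arrays and could not move by more than that spread, so they say nothing on stability. With normexp 23 values moved and 17 did not. With the other control 28 moved, 11 did not and 1 turned. RGS5 was lost without the third A2780CBN array and in the 3-way ANOVA, which also lost RGS9BP in A2780CBNDXL. When probes were averaged, the GNAZ calls were lost, and GNAS and GNB5 were gained in A2780CBNDXL. Keeping outlier spots and using the other control were chosen after seeing the data. No paired analysis was possible because each group is 1 sample and the groups share fewer than 2 replicate numbers. Signal over background limits GNA14, GNAL and RGS18, which have bounds in 1 channel.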
